A study of Homo sapiens with 75 samples.

Results

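GDF15 (growth differentiation factor 15, also called MIC-1 and NAG-1) was followed in 5 human cell lines before and after ionising radiation, on 75 Affymetrix arrays. The gene is represented by every probe set whose only annotated gene symbol is GDF15, which gave 3 of the 54675 probe sets on the array and 1 of 19775 genes with a symbol of their own. GDF15 was selected on its measured values in these data: it was chosen for its difference between irradiated and untreated cells in 3 of the lines and for its later level in the untreated arrays labelled HepG2. Those differences, and the same arrays set against 0 h, are therefore given below as descriptions with no test.

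The lines were TK6 (B lymphoblasts), U2OS (from an osteosarcoma), BJ (normal foreskin fibroblasts), G361 (from a melanoma) and HepG2 (from a liver tumour). Irradiated cells of each line received 5 Gy and were collected 3 h or 6 h later, with 3 arrays for each time. Untreated cells were collected at 0 h, 3 h and 6 h, with 3 arrays for each time, and were mock-irradiated and otherwise handled in the same way. All groups were grown in DMEM with fetal calf serum.

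GDF15 is a secreted cytokine of the TGF-beta superfamily. It is made as a precursor that is cleaved by furin-type proteases, and the mature dimer signals through the receptor GFRAL with its co-receptor RET in the hindbrain, where it lowers food intake. In cultured cells its transcription is known to be driven by p53 after DNA damage, and by ATF4 and CHOP (the product of DDIT3) in the integrated stress response, the programme that follows phosphorylation of eIF2alpha. Raised GDF15 in blood is a known companion of cancer and mitochondrial disease.

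The basal promoter region is shown because the results below set GDF15 beside the targets of p53, ATF4 and CHOP. The 250 bases before its transcription start, on the plus strand at chr19:18385908-18386157, are given 5′ to 3′ from RefSeq (GRCh38.p14), with capitals marking the TATA box and the GC boxes known to bind Sp1.
GDF15 promoter: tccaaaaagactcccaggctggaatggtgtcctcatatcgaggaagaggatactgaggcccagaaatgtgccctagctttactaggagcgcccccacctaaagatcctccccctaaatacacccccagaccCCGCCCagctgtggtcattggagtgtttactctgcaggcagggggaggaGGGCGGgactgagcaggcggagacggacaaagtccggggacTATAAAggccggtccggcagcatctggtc
The TATA box (TATAAA, searched on the plus strand) lay at positions -29 to -24 from the start. It was present in 7.33% of 35116 RefSeq promoter windows. These windows ran past the start and so were longer than the 250 bases shown, and all shares given here are over them. The Sp1 box (GGGCGG, searched on both strands) matched at -70 to -65 on the plus strand and at -119 to -114 on the minus strand, and 45.0% of the windows held at least 1 match.

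No match was found on either strand of the 250 bases for the cyclic AMP element TGACGTCA (in 1.85% of windows), the ATF4 and CHOP composite element TGATGNAA (3.62%), the AP-1 element TGANTCA (7.71%), the EGR1 element GCGNGGGCG (9.43%) or the p53 half-site (6.63%). The 20-base stretch nearest to a full p53 site lay just after the start, at 28 to 47 bases into the transcribed strand (chr19:18386186-18386205), and differed from it at 3 positions. It is shown because p53 targets form the largest group of genes compared with GDF15 below.
GDF15 p53-like stretch: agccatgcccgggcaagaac
A stretch with no more than 3 differences was present in 5.20% of the 35116 windows. These matches describe letters only, and binding was not measured here.

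The values are log2 signals as deposited, normalised by RMA (robust multi-array average) per the submitters' processing notes. Array medians lay between 3.91 and 4.07, and arrays of the same group correlated at 0.970 to 0.996 across probe sets, against at most 0.932 between lines. Upper quartiles were lowest in replicate 1 of untreated U2OS at 3 h (5.88) and of untreated HepG2 at 0 h (6.00), against 6.06 to 6.41 elsewhere. A level limit was set for each line at the 40th percentile of all probe sets, which fell between 3.47 and 3.52. Lineage markers were highest in their own line for 10 of 10 lymphoid genes in TK6, 12 of 12 fibroblast genes in BJ and 7 of 7 melanocyte genes in G361, but for only 2 of 6 osteoblast genes in U2OS. In the arrays labelled HepG2 only 1 of 10 hepatocyte genes was highest, AFP at 5.89, while ALB at 2.77 was below its level in each other line and APOA1 at 4.07 lay between 3.99 in BJ and 4.27 in U2OS. SERPINA1, a liver-secreted protease inhibitor, was 8.57 in the arrays labelled U2OS, against 3.11 to 3.56 in the other lines, and AFP was 5.48 there. The osteoblast factor RUNX2 was 9.17 in the arrays labelled HepG2, against 8.04 in those labelled U2OS and 7.59 in BJ. Other osteoblast genes went the other way, with SPP1 at 8.83 under U2OS and 7.10 under HepG2, and SPARC at 11.90 and 11.72. ALPL, IBSP and SP7 were 3.36, 4.19 and 2.89 under U2OS, against 3.30, 4.20 and 3.00 under HepG2. The mean of the hepatocyte genes ranged from 3.64 to 3.84 in the arrays labelled HepG2, against 3.29 to 4.48 in all other arrays, so their hepatocyte identity was not borne out by these markers. The names U2OS and HepG2 below stand for the labels of the arrays. Under the label G361, the arrays of replicate 1 had GAPDH 5′ minus 3′ signals of -0.94 to -0.68, a sign of RNA quality, whereas every other array was at -0.18 or above.

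The 3 probe sets of GDF15 differed in how much signal they held. The probe set 221577_x_at ranged from 3.11 to 12.02 over the 75 arrays with a median of 8.86, and its mean was above the level limit in 5 of 5 lines. The probe set 229868_s_at ranged from 2.62 to 5.94 with a median of 3.97 and passed the limit in 4 of 5 lines. The probe set 221576_at ranged from 2.72 to 4.68 with a median of 3.22 and passed it in 1 of 5 lines. All further values are those of 221577_x_at unless another probe set is named. The suffix _x_at marks a probe set in which some probes can match other transcripts, and what such transcripts add to its signal was not tested.

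In untreated cells at 0 h the 5 lines spanned a wide range of GDF15. The arrays labelled G361 read 10.76, 11.17 and 11.51, and those labelled HepG2 read 8.76, 8.88 and 9.03. BJ fibroblasts read 7.90, 7.45 and 7.42, and TK6 lymphoblasts read 7.48, 7.15 and 7.51. U2OS was the lowest line at 3.66, 4.52 and 4.06, close to its level limit of 3.52. The group means in that order were 11.15 ± 0.37, 8.89 ± 0.14, 7.59 ± 0.27, 7.38 ± 0.20 and 4.08 ± 0.43 (SD, n = 3 each). In one limma fit of all 75 arrays over 16027 genes, G361 exceeded U2OS by 7.07 (134-fold, adjusted p = 6.03e-37), TK6 by 3.77 (13.6-fold, adjusted p = 5.81e-23) and BJ by 3.56 (11.8-fold, adjusted p = 1.35e-21). TK6 exceeded U2OS by 3.30 (9.86-fold, adjusted p = 2.91e-20), and U2OS was below BJ, with a difference of -3.51 (11.4-fold, adjusted p = 2.67e-21). TK6 minus BJ was -0.21 (adjusted p = 0.457), so this pair was not separated by the limma test, and each of these differences had an SE of 0.23. Differences of this kind were common between the lines: 50.3% of genes passed the test between G361 and U2OS, 50.7% between G361 and TK6, 53.1% between G361 and BJ, 55.6% between TK6 and U2OS, 56.4% between U2OS and BJ and 59.2% between TK6 and BJ. The arrays labelled HepG2 lay 2.26 below those labelled G361 and exceeded TK6 by 1.51, BJ by 1.30 and U2OS by 4.81, given with no test.

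**Figure D1:**
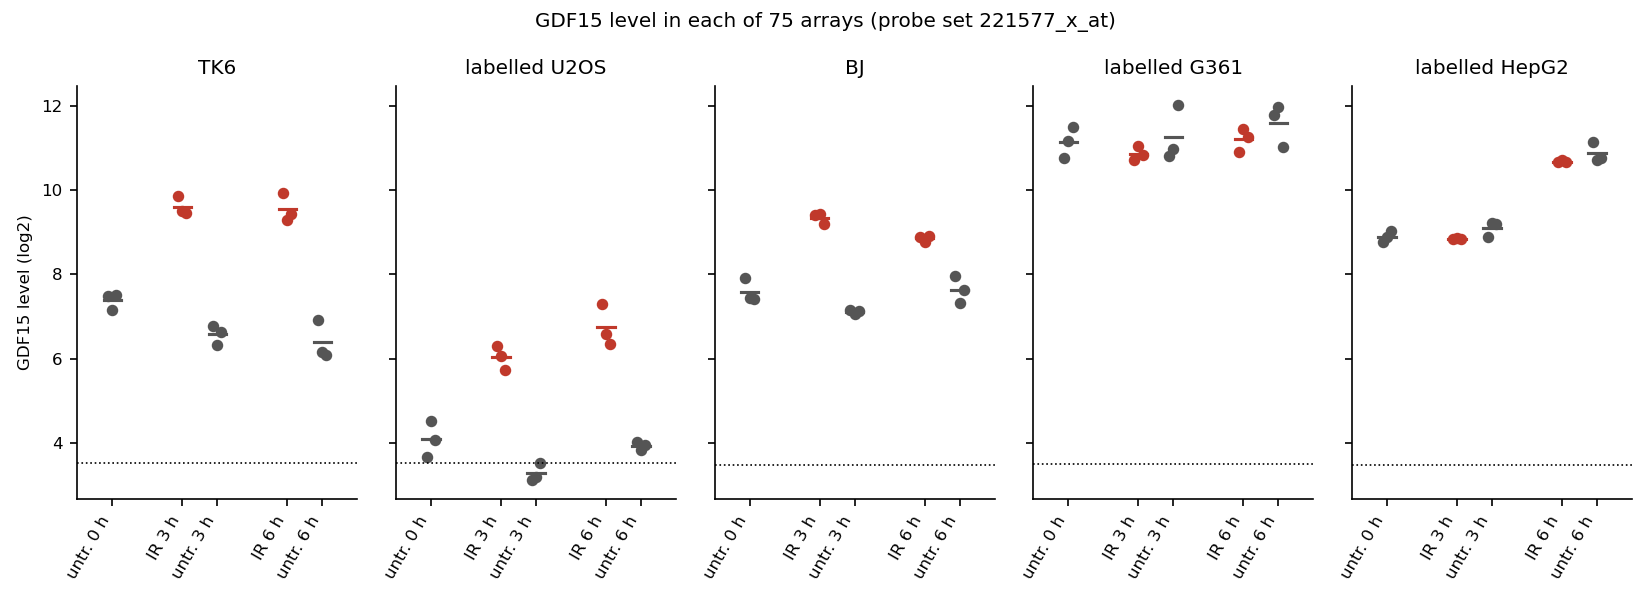
GDF15 level (log2 signal, vertical axis) on each of the 75 arrays by time in hours, in 1 panel per line, with irradiated arrays in red, untreated arrays in grey, horizontal bars at the mean of 3 arrays and a dotted line at the level limit. Irradiated arrays stand above untreated ones in TK6, U2OS and BJ, whereas in the panel labelled HepG2 both conditions stand near 9 at 3 h and near 11 at 6 h.

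TK6 had the largest difference between irradiated and untreated cells. At 3 h GDF15 was 9.85, 9.50 and 9.45 in irradiated TK6 cells, against 6.78, 6.33 and 6.63 in untreated TK6 cells. At 6 h it was 9.93, 9.30 and 9.43 in irradiated cells, against 6.93, 6.15 and 6.09 in untreated cells. Every irradiated array was above every untreated one at both times, with differences of 3.02 (SE 0.21, 8.13-fold) at 3 h and 3.16 (SE 0.21, 8.97-fold) at 6 h. GDF15 ranked 4 at 3 h and 5 at 6 h among the 14227 genes tested in TK6, in descending order of difference. In bulk samples such as these, more GDF15 RNA per cell and more cells that hold it cannot be told apart. The share of all genes that passed the test was 3.99% at 3 h and 6.23% at 6 h, and since the rule used this contrast nothing is read from it.

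U2OS-labelled cells, which started lowest, had a difference almost as large. At 3 h GDF15 was 6.31, 6.07 and 5.73 in irradiated U2OS-labelled cells, against 3.11, 3.19 and 3.52 in untreated U2OS-labelled cells. At 6 h it was 7.29, 6.58 and 6.36 in irradiated cells, against 4.01, 3.83 and 3.96 in untreated cells. The irradiated and untreated arrays did not overlap at either time. The differences were 2.76 (SE 0.26, 6.79-fold) at 3 h and 2.81 (SE 0.26, 7.0-fold) at 6 h, and GDF15 ranked 1 of 14654 genes at both times. The untreated mean at 3 h, 3.27 ± 0.22 (SD, n = 3), lay below the level limit of 3.52, and with values below that limit set to it the 3 h difference was 2.52 (5.73-fold). In U2OS 0.0887% of all genes passed the test at 3 h and 0.641% at 6 h, and the median of all genes at 3 h was itself shifted by 0.10.

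In BJ fibroblasts GDF15 was 9.40, 9.43 and 9.19 in irradiated cells at 3 h, against 7.15, 7.06 and 7.13 in untreated cells. At 6 h it was 8.90, 8.76 and 8.92 in irradiated cells, against 7.95, 7.33 and 7.63 in untreated cells. The arrays did not overlap at either time, but the gap was narrower at 6 h. The differences were 2.23 (SE 0.15, 4.68-fold) at 3 h and 1.22 (SE 0.15, 2.33-fold) at 6 h, which ranked 1 and 2 of 14467 genes. Of all genes in BJ, 0.18% passed the test at 3 h and 0.235% at 6 h.

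The arrays labelled G361 already held the highest GDF15 of the series and showed no separation by irradiation. At 3 h they read 10.73, 11.06 and 10.83 after irradiation, against 10.81, 10.98 and 12.02 untreated. At 6 h they read 10.91, 11.45 and 11.26 after irradiation, against 11.79, 11.99 and 11.02 untreated. The groups overlapped at both times, with differences of -0.40 (SE 0.28) at 3 h and -0.39 (SE 0.28) at 6 h. In limma 0% of the 14487 genes passed the test at either time, with 106 genes at 3 h and 226 genes at 6 h below an unadjusted p of 0.05.

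The arrays labelled HepG2 differed by time and little by irradiation. At 3 h they read 8.83, 8.86 and 8.84 after irradiation, against 8.88, 9.21 and 9.20 untreated. At 6 h they read 10.66, 10.71 and 10.67 after irradiation, against 11.14, 10.72 and 10.76 untreated. All irradiated arrays lay below all untreated arrays at both times, by small margins: the differences were -0.25 (SE 0.11) at 3 h and -0.20 (SE 0.11) at 6 h. Of the 14369 genes tested by limma, 0% passed the test at 3 h, with 809 below an unadjusted p of 0.05, and 0.00696% passed at 6 h. With the replicate number as a block 56 genes passed at 6 h under this label, against 1 without it, and 1203 and 1868 genes passed in TK6 at 3 h and 6 h, against 568 and 887.

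**Figure D2:**
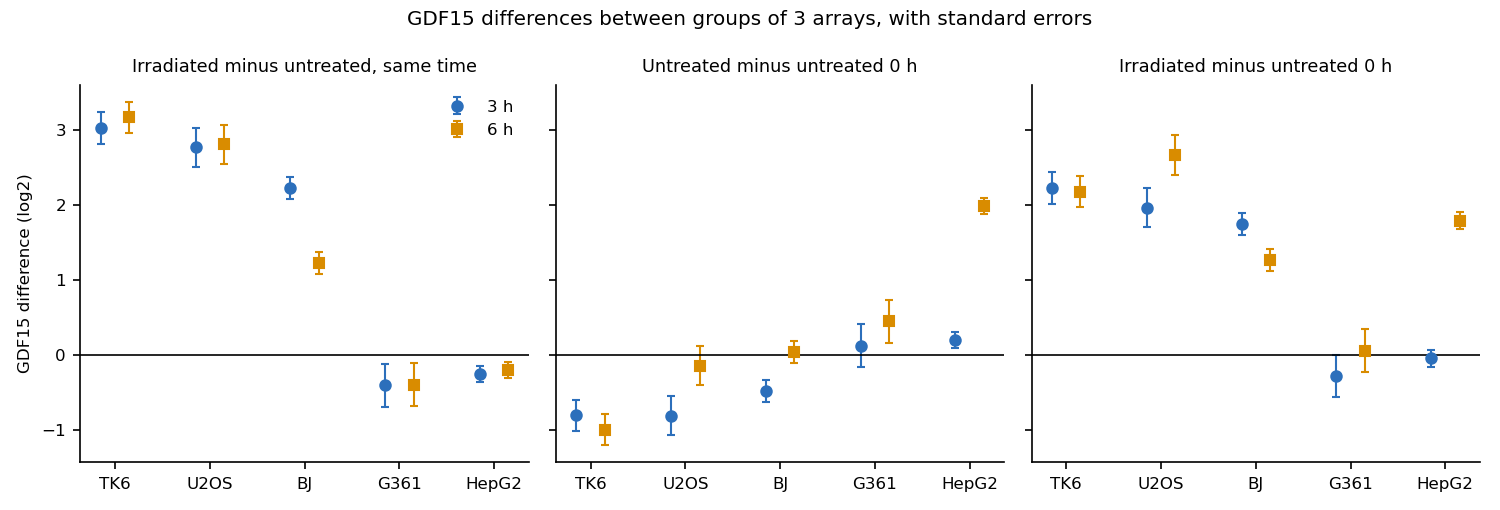
Difference in GDF15 (log2, vertical axis, bars ± SE) in each line, for irradiated minus untreated at the same time, untreated minus 0 h, and irradiated minus untreated 0 h, with circles for 3 h and squares for 6 h. TK6, U2OS and BJ stand between 1.22 and 3.16 in the first panel, while the arrays labelled HepG2 stand out at 6 h in the second panel, at 1.99.

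The change in the irradiation difference between 3 h and 6 h was not itself named in the choice of the gene and was tested. It is built from the same arrays, however, and is separate only from the mean of the 3 h and 6 h differences. A choice that leaned on 1 of these times would bear on its p-values. In BJ the difference was smaller at 6 h than at 3 h, with a change of -1.0 (SE 0.21, 95% confidence interval -1.44 to -0.57), but it missed the threshold in limma after adjustment over 14467 genes (adjusted p = 0.788). In that ordering GDF15 was at place 18 from the low end, and 0% of BJ genes passed the test, with 302 below an unadjusted p of 0.05. The estimate for TK6 was 0.14 (interval -0.48 to 0.76, limma adjusted p = 0.988), where 0.295% of genes passed. The estimate for U2OS was 0.043 (interval -0.73 to 0.81, limma adjusted p = 1.0), where 0% passed and 371 genes were below an unadjusted p of 0.05. For arrays labelled G361 the estimate was 0.0095 (interval -0.84 to 0.86, limma adjusted p = 1.0), where 0% passed and 102 genes were below that p. In the arrays labelled HepG2 the value was 0.051 (SE 0.15), given with no test because it rests on the untreated arrays that chose the gene, and 0% of genes passed in limma with 329 below an unadjusted p of 0.05.

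Among irradiated cells alone, GDF15 rose between 3 h and 6 h in the arrays labelled HepG2. The difference was 1.83 (SE 0.11, interval 1.61 to 2.06, 3.56-fold, limma adjusted p = 7.33e-09), all 3 arrays at 6 h were above all 3 at 3 h, and it ranked 4 of 14369 genes in a comparison where 0.821% passed. In irradiated U2OS-labelled cells the difference was 0.70 (SE 0.26, 1.63-fold) and the 2 times did not overlap, but it missed the threshold in limma (unadjusted p = 0.0144, adjusted p = 0.939) in a comparison where 0.0614% of genes passed. In irradiated BJ cells it was -0.48 (SE 0.15, 1.40-fold), again without overlap and short of the threshold in limma (unadjusted p = 0.00437, adjusted p = 0.394), where 0.118% passed. Irradiated TK6 cells gave -0.049 (interval -0.49 to 0.39, limma adjusted p = 0.967), where 2.24% of genes passed. The irradiated arrays labelled G361 gave 0.34 (interval -0.26 to 0.94, limma adjusted p = 1.0), where 0% passed and 250 genes were below an unadjusted p of 0.05. The irradiated arrays of TK6, U2OS and BJ also entered the differences that chose the gene. A choice that leaned on 3 h or on 6 h would bear on the p-values of these lines.

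The time course of the irradiated arrays was also compared between lines. Those of TK6, U2OS and BJ had entered the choice of the gene, so the same caution holds for their p-values here. The change between 3 h and 6 h in the arrays labelled HepG2 exceeded that in TK6 by 1.88 (SE 0.33, limma adjusted p = 0.000242) and that in BJ by 2.32 (SE 0.33, limma adjusted p = 2.27e-05), with 0.736% and 0.156% of genes past the test in the 2 comparisons. Against U2OS the excess was 1.13 (limma adjusted p = 0.436, 0.025% of genes passed). The change in the arrays labelled G361 minus that in those labelled HepG2 was -1.49 (limma adjusted p = 0.0915, 0.00624% of genes passed). The other 6 pairs of lines did not pass, and the nearest was U2OS minus BJ at 1.19 (limma adjusted p = 0.213).

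Untreated cells moved with time as well, and in different directions in different lines. In untreated TK6 cells GDF15 at 3 h was 0.80 below 0 h (difference -0.80, SE 0.21), and at 6 h the difference was -0.99, with no overlap with 0 h at either time. Of all genes in TK6, 1.81% passed the test at 3 h and 5.16% at 6 h against 0 h. In untreated U2OS-labelled cells the difference was -0.80 (SE 0.26) at 3 h, without overlap, and -0.14 at 6 h, with overlap. With values below the level limit set to it the 3 h difference was -0.56, and the median of all genes in that comparison was -0.13. In limma 0% of U2OS genes passed at either time, with 888 genes at 3 h and 118 at 6 h below an unadjusted p of 0.05. In untreated BJ cells the difference was -0.48 (SE 0.15) at 3 h, without overlap, and 0.045 at 6 h, with overlap, and 0.0138% and 0.00691% of genes passed at the 2 times. These 3 h and 6 h arrays are the same ones that the irradiated arrays were set against, so a lower untreated level enters the irradiation difference at that time. Set against 0 h instead, irradiated cells gave 2.22 and 2.17 in TK6, 1.96 and 2.66 in U2OS and 1.75 and 1.27 in BJ at 3 h and 6 h, all smaller than the same-time differences except the 6 h value in BJ.

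In the untreated arrays labelled HepG2 GDF15 was 9.09 ± 0.19 at 3 h and 10.88 ± 0.23 at 6 h, against 8.89 ± 0.14 at 0 h (SD, n = 3 each). The 3 h arrays overlapped those of 0 h, with a difference of 0.21 (SE 0.11), whereas the 6 h arrays were all higher, with a difference of 1.99 (SE 0.11, 3.97-fold) that ranked 3 of 14369 genes. In limma 0% of genes passed at 3 h, with 1490 below an unadjusted p of 0.05, and 0.64% passed at 6 h. Irradiated arrays of the same label differed from 0 h by -0.043 at 3 h and by 1.79 (3.46-fold) at 6 h. The later level was therefore present with and without irradiation in these arrays.

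In the untreated arrays labelled G361 GDF15 minus its 0 h level was 0.12 at 3 h (SE 0.28, interval -0.48 to 0.73, limma adjusted p = 1.0) and 0.45 at 6 h (interval -0.15 to 1.06, limma adjusted p = 1.0). Both groups overlapped with 0 h, and 0% of genes passed in limma at either time, with 291 and 282 genes below an unadjusted p of 0.05. The replicates within these groups were uneven: replicate 3 stood highest at 3 h, at 12.02, and lowest at 6 h, at 11.02.

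Ordered by their means, the 25 groups ran from 11.60 in the arrays labelled G361, untreated at 6 h, down to 3.27 in untreated U2OS-labelled cells at 3 h. The 5 groups labelled G361 and the 2 groups labelled HepG2 at 6 h took the top 7 places. Irradiated TK6 cells followed, at 9.60 ± 0.22 at 3 h and 9.55 ± 0.34 at 6 h, and then irradiated BJ cells at 3 h, at 9.34 ± 0.13 (SD, n = 3 each). Irradiated U2OS-labelled cells, at 6.04 ± 0.29 at 3 h and 6.74 ± 0.49 at 6 h, lay below untreated BJ cells at 0 h, 3 h and 6 h. Neighbours in this order overlapped in their arrays everywhere except at 5 steps. These were between the arrays labelled G361, irradiated at 3 h (10.87), and those labelled HepG2, irradiated at 6 h (10.68), and between that HepG2-labelled group and irradiated TK6 at 3 h (9.60). The others were between the arrays labelled HepG2, irradiated at 3 h (8.85), and untreated BJ at 6 h (7.64), between irradiated U2OS at 3 h (6.04) and untreated U2OS at 0 h (4.08), and between untreated U2OS at 6 h (3.93) and at 3 h (3.27).

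The dimmer probe sets moved less. For 229868_s_at the irradiated minus untreated differences were 0.41 at 3 h and 0.61 at 6 h in TK6 (SE 0.20), 0.26 and 0.48 in U2OS (SE 0.29) and 0.62 and 0.34 in BJ (SE 0.20). Under the label G361 they were -0.25 and 0.10 (SE 0.35), and under the label HepG2 0.16 and -0.20 (SE 0.29). Its irradiated and untreated arrays overlapped in all of these comparisons except TK6 at 3 h, and its U2OS means of 3.60 after irradiation and 3.34 untreated at 3 h lay near the level limit. For the same probe set in the arrays labelled HepG2 the untreated 6 h level exceeded that at 0 h by 1.06 (SE 0.29). For 221576_at the irradiated minus untreated differences lay between -0.34 and 0.29 over the 10 comparisons. The sign of the brightest probe set was shared by 229868_s_at at both times in TK6, U2OS and BJ, but not in G361 at 6 h or HepG2 at 3 h, and 221576_at had the opposite sign in BJ.

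The genes whose arrays followed GDF15 most closely were nearly all known p53 targets. Likeness was Pearson's r over 75 arrays after the mean of each line was removed, among 16027 genes, and it is a description only, since the arrays share their lines, groups and normalisation. It also carries the irradiation differences and the later HepG2-labelled level for which GDF15 was chosen. A gene chosen that way would lie near other genes that rose in the same groups, so nothing is read from it about cause. The highest value was 0.92 for SESN1, a sestrin that restrains mTORC1 signalling. GADD45A, a growth-arrest protein, and MDM2, the ubiquitin ligase that limits p53, both had 0.91. TIGAR, a phosphatase that slows glycolysis, CDKN1A, which encodes the cell-cycle inhibitor p21, and TP53INP1, a p53-induced nuclear protein, each had 0.90. ATF3, a stress-induced transcription factor, had 0.89. PPM1D, a phosphatase that dampens damage signalling, and PHLDA3, an inhibitor of AKT, had 0.88, and XPC, which recognises lesions for nucleotide excision repair, had 0.86. Of these 10 genes 9 were in the p53 target list and ATF3 was in the integrated stress response list. Within single lines of 15 arrays the values of SESN1 were 0.97 in the arrays labelled HepG2 and 0.76 in those labelled G361.

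Over whole lists, the median r with GDF15 was 0.75 for the 43 p53 targets among the 16027 genes, against 0.039 for all genes. Of these 43 targets 28 were among the 100 most similar genes. The median r was 0.16 for 27 integrated stress response genes, 0.065 for 12 transcription factors known to act on GDF15, 0.10 for 5 receptor and processing genes, 0.040 for 26 TGF-beta superfamily ligands and 0.032 for 23 other secreted stress factors. Across the 25 group means without removal of the line, which also carries the differences between lines, the nearest genes were KAT2B, a histone acetyltransferase, at 0.93, PTP4A1, a phosphatase, at 0.91, GMDS, an enzyme of GDP-fucose synthesis, at 0.91, HSD17B12, an enzyme of fatty acid elongation, at 0.90, and DUSP10, a phosphatase acting on stress kinases, at 0.90. None of these 5 was among the 10 genes above.

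**Figure D3:**
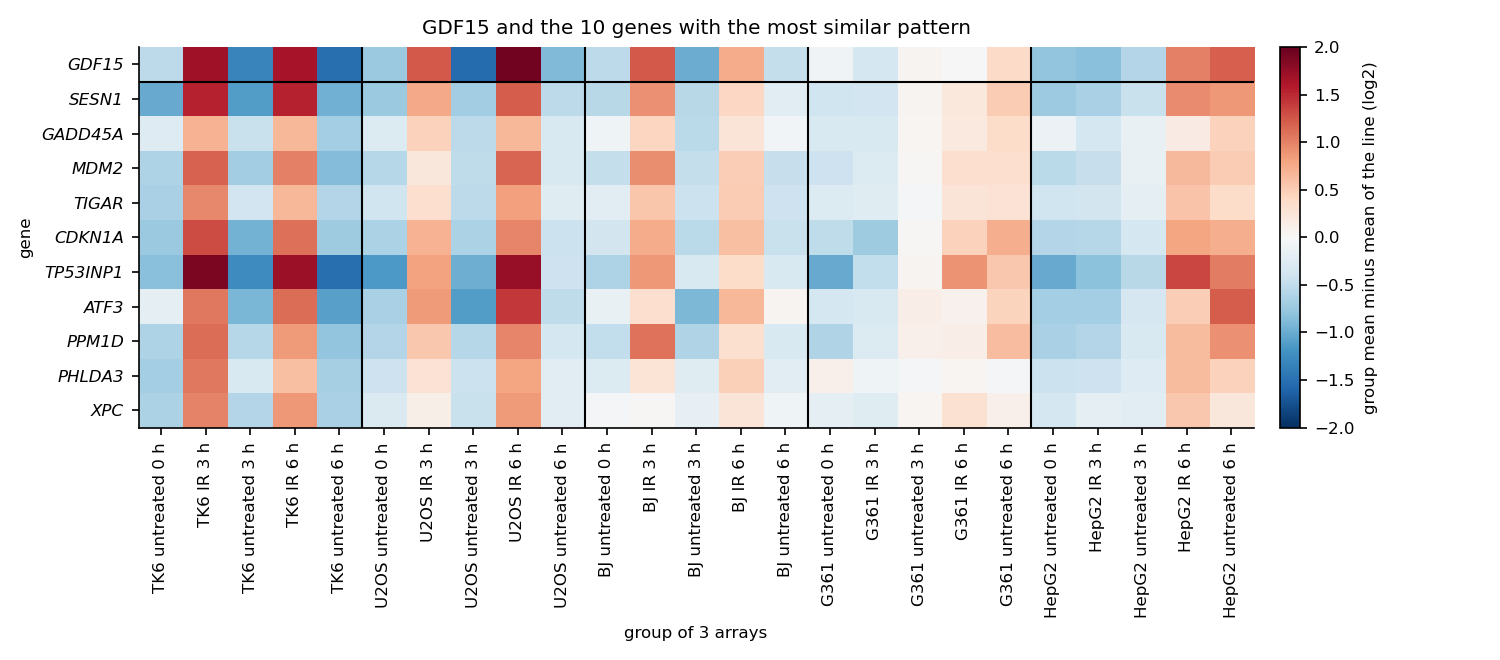
Heat map of GDF15 and the 10 genes most like it (rows) in the 25 groups (columns), where colour is the group mean minus the mean of its line (log2). GDF15 and its neighbours are above their line's mean in irradiated TK6, U2OS and BJ cells, and in both the irradiated and the untreated 6 h groups labelled HepG2.

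The p53 target list held 48 genes, of which 44 were measured, more than any other list here. In irradiated minus untreated TK6 cells 33 of 38 tested members rose and 0 fell at 3 h (median 1.18), where 3.99% of all genes passed. At 6 h 34 rose and 0 fell (median 1.29), where 6.23% passed, against medians of all genes within 0.02 of 0. In U2OS 7 of 40 rose and 0 fell at 3 h (median 0.56, all genes 0.10), where 0.0887% of all genes passed. At 6 h 18 rose and 0 fell in U2OS (median 0.82), where 0.641% passed. In BJ 14 of 41 rose and 0 fell at 3 h (median 0.34), where 0.18% of all genes passed. At 6 h 11 rose and 0 fell in BJ (median 0.42), where 0.235% passed. In the arrays labelled G361 0 of 40 and in those labelled HepG2 0 of 42 were called by limma at either time, with 1 and 5 (G361) and 5 and 19 (HepG2) below an unadjusted p of 0.05 at 3 h and 6 h, and the medians were -0.18 and 0.10 for G361 and -0.046 and 0.19 for HepG2. CDKN1A rose by 2.25 and 1.81 in TK6, by 1.33 and 1.41 in U2OS and by 1.28 and 1.04 in BJ at 3 h and 6 h, always less than the GDF15 difference in the same comparison. SESN1 rose by 2.67 and 2.50 in TK6, by 1.46 and 1.73 in U2OS and by 1.48 in BJ at 3 h, while its BJ difference of 0.63 at 6 h was not called. TP53INP1 rose by 3.14 and 3.21 in TK6, larger values than those of GDF15. The counts outside TK6 depended on single replicates. In U2OS at 3 h and 6 h they were 0 and 2 without replicate 3 and 1 and 5 without replicate 2. In BJ at 6 h they were 5, 1 and 0 without replicates 1, 2 and 3, and at 3 h 9 without replicate 2 or 3. In the arrays labelled HepG2 they were 2 and 15 without replicate 1. With the replicate number as a block, 11 genes of the list rose in U2OS at 3 h and 8 at 6 h in the arrays labelled HepG2.

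The same list moved with time in the arrays labelled HepG2. Between 3 h and 6 h of irradiated arrays 22 of 42 members rose and 0 fell (median 0.69), where 0.821% of all genes passed. Among them, TP53INP1 rose by 2.16 and CDKN1A by 1.36. Between untreated 0 h and 6 h CDKN1A rose by 1.32. There 14 members rose and 0 fell (median 0.51, all genes 0.06), where 0.64% of all genes passed. Without replicate 2 these counts were 10 and 9, and without replicate 3 they were 9 and 7, while without replicate 1 they were 33 and 22. In untreated TK6 cells at 6 h 0 rose and 7 fell against 0 h (median -0.17), where 5.16% of all genes passed. The GDF15 value moved in the same direction there. But 0 members were called without replicate 2 or without replicate 3, and 2 without untreated 6 h replicate 2 or 3. Among irradiated BJ cells PPM1D fell by 0.77 between 3 h and 6 h (adjusted p = 0.0286 in limma), the only called member, beside a GDF15 difference of -0.48, and it was not called with any replicate or array left out.

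**Figure D4:**
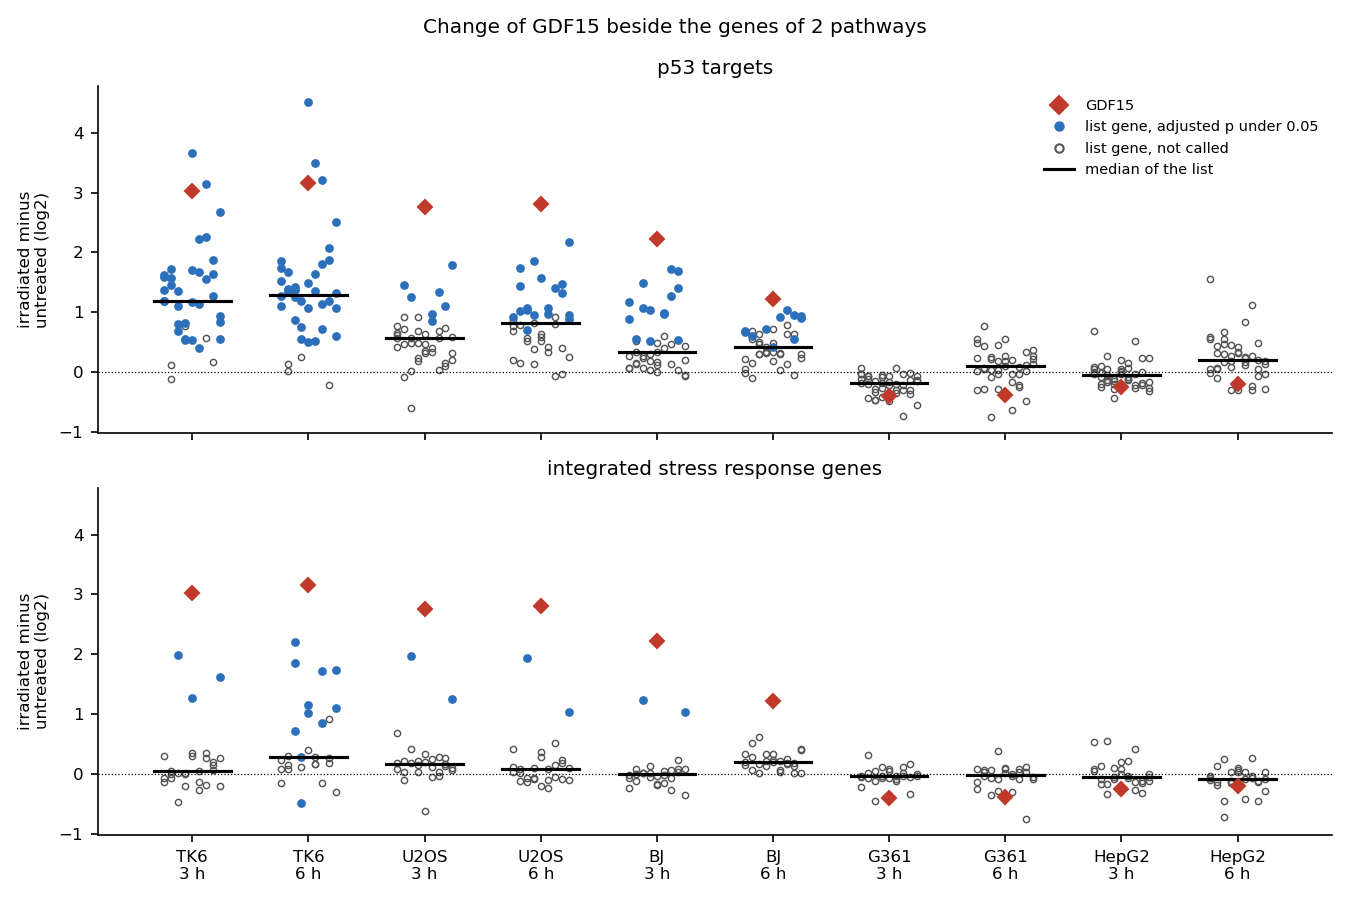
Irradiated minus untreated difference (log2, vertical axis) of each measured p53 target and each integrated stress response gene, by line and time, with blue points for genes that passed the test, open points for the others, a black bar at the list's median and a red diamond for GDF15. GDF15 lies near the top of the p53 targets in TK6, U2OS and BJ, and below the median in the arrays labelled G361 and HepG2.

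Array by array, GDF15 and the mean of the p53 targets were set beside each other as differences from the line's 0 h mean. The p53 target mean was 0.99 to 1.12 in irradiated TK6 cells at 3 h and 0.94 to 1.14 at 6 h, against -0.18 to 0.01 and -0.19 to -0.06 in untreated cells. In irradiated U2OS-labelled cells it was 0.34 to 0.56 at 3 h and 0.82 to 1.07 at 6 h, and GDF15 on the same scale was 1.66 to 2.23 at 3 h and 2.28 to 3.21 at 6 h, so both were higher in all 3 arrays of the later time. In irradiated BJ cells it was 0.39 to 0.46 at 3 h and 0.39 to 0.47 at 6 h. Under the label HepG2 at 6 h it was 0.76 to 0.84 after irradiation, against 0.55 to 0.60 untreated, whereas GDF15 was slightly lower after irradiation. In the untreated arrays labelled G361 at 6 h it was 0.52, 0.55 and 0.03 in replicates 1, 2 and 3, and GDF15 was lowest in replicate 3 as well. At 3 h the highest value, 0.52, was that of replicate 3, which held the highest GDF15 of the series. Replicate 1 of this label, with its lower GAPDH 5′ signal, held the lowest GDF15 at untreated 0 h (10.76) and 3 h (10.81). It was also lowest among irradiated arrays at 3 h (10.73) and at 6 h (10.91). At untreated 6 h it read 11.79, between replicates 3 and 2. What RNA quality adds to these levels was not tested.

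**Figure D5:**
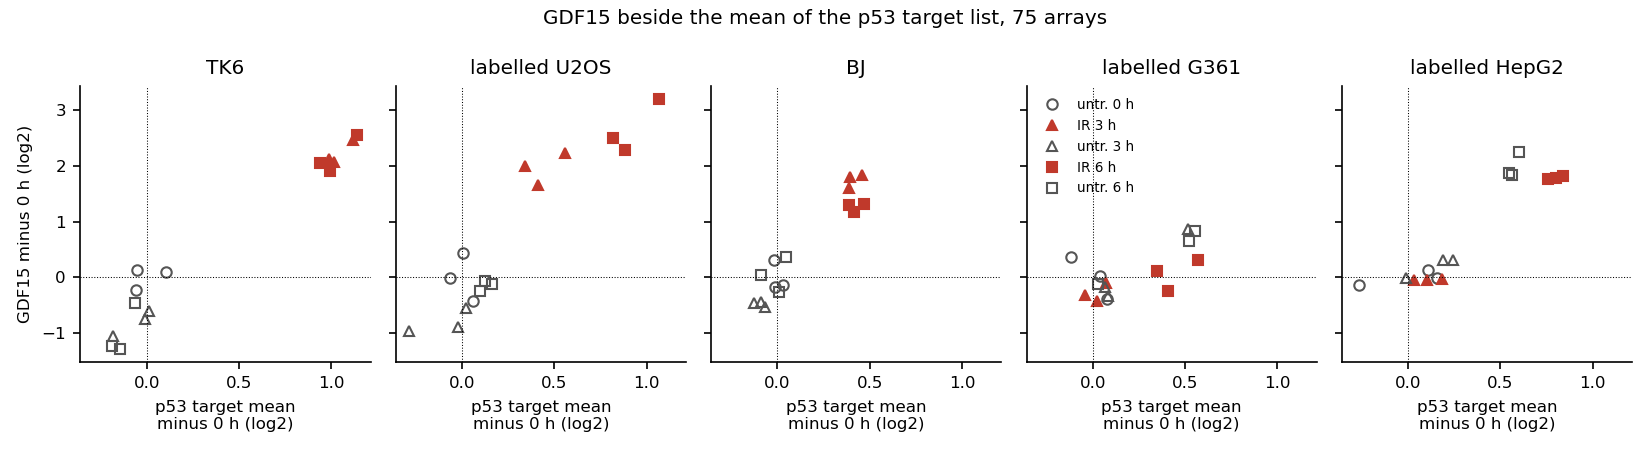
GDF15 (vertical axis) against the mean of the p53 targets (horizontal axis) on each array, both as log2 difference from the 0 h mean of the line, in 1 panel per line with irradiated arrays in red and untreated arrays in grey. Irradiated arrays of TK6, U2OS and BJ lie apart from untreated arrays on both axes, whereas arrays labelled HepG2 fall apart by time.

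Of the integrated stress response list 27 of 28 genes were measured, and members were called with irradiation in TK6, U2OS and BJ. In TK6 3 of 27 rose and 0 fell at 3 h (median 0.040), and 10 rose and 1 fell at 6 h (median 0.28), where 3.99% and 6.23% of all genes passed. At 6 h CHAC1, which degrades glutathione, rose by 1.72, SESN2, a sestrin that is also in the p53 list, by 1.74 and NUPR1, a stress-induced chromatin protein, by 1.16. The 6 h count was 7 without replicate 2 or replicate 3. In U2OS 2 rose and 0 fell at each time (medians 0.17 and 0.09): ATF3, by 1.97 and 1.93, and SESN2, by 1.25 and 1.04, where 0.0887% and 0.641% of all genes passed. The U2OS count was 1 at each time without replicate 2 or replicate 3, and the TK6 count at 3 h was 2 without either. In BJ 2 rose at 3 h, ATF3 and SESN2 (1.04), where 0.18% of all genes passed, but 1 without any of the 3 replicates, and 0 were called by limma at 6 h, with 7 below an unadjusted p of 0.05. Between irradiated and untreated arrays 0 members were called by limma under the labels G361 and HepG2, with 0 and 0 (G361) and 1 and 3 (HepG2) below an unadjusted p of 0.05 at 3 h and 6 h.

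Other comparisons of these genes are given beside the GDF15 values. Of all genes, 0.118% passed between 3 h and 6 h in irradiated BJ cells and 0.821% under the label HepG2. Against 0 h, 0.64% passed at 6 h in untreated arrays labelled HepG2 and 5.16% in untreated TK6 cells. Between irradiated BJ cells at 6 h and at 3 h CHAC1 rose by 1.93, DDIT3 (which encodes CHOP) by 1.45, DDIT4, an mTORC1 inhibitor, by 2.02 and STC2, a secreted glycoprotein, by 0.52, and 0 members fell, while GDF15 gave -0.48. These 4 calls became 1 without replicate 2 and 2 without replicate 3. Under the label HepG2, irradiated cells at 6 h against 3 h gave 2 rises, ATF3 by 1.17 and SESN2 by 0.84, beside the GDF15 rise of 1.83, though 0 were called without replicate 2 or without replicate 3. Untreated arrays of that label at 6 h against 0 h gave 3 rises, ATF3 by 1.90, SESN2 by 1.33 and DDIT4 by 1.23. In untreated TK6 cells at 6 h against 0 h 2 rose and 9 fell (median -0.23), with CHAC1 at -1.29 and INHBE at -1.24, and 3 fell without replicate 2 and 0 without replicate 3.

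Of the transcription factors known to act on GDF15, 12 were measured, and 11 or 12 were tested in each line. ATF3 was called with irradiation in 3 lines: it rose in TK6 by 1.98 (SE 0.19) at 3 h and by 2.20 at 6 h, in U2OS by 1.97 and 1.93, and in BJ by 1.23 (SE 0.24, limma adjusted p = 0.0469) at 3 h, while its 6 h value in BJ, 0.61, was not called. It was the only factor called at 3 h in TK6 (1 of 11, 3.99% of all genes) and in BJ (1 of 12, 0.18%). In U2OS it was 1 of 11 at each time, where 0.0887% and 0.641% of all genes passed. In TK6 at 6 h DDIT3 rose by 1.10, CEBPB, a partner of CHOP, by 1.02, EGR1, an immediate-early factor, by 0.78 (limma adjusted p = 0.0303) and ATF4 by 0.28 (limma adjusted p = 0.0232). With ATF3 these were 5 of 11 tested factors, where 6.23% of all genes passed. In untreated TK6 cells at 6 h against 0 h ATF3 fell by 0.89, DDIT3 by 0.82 and ATF4 by 0.59, where the GDF15 difference was -0.99. These were 3 of 11 tested factors, where 5.16% of all genes passed. Under the labels G361 and HepG2 0 factors were called by limma with irradiation, with 0 and 1 (G361) and 1 and 2 (HepG2) below an unadjusted p of 0.05 at 3 h and 6 h, where EGR1 gave -1.56 at 6 h in G361 (limma adjusted p = 0.112) and ATF3 gave -0.73 at 6 h in HepG2 (limma adjusted p = 0.307). Of all genes, 0% passed under G361 at both times and under HepG2 at 3 h, and 0.00696% under HepG2 at 6 h.

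No measured gene that processes or receives GDF15 passed the test. Of the list, 6 were measured: RET, the co-receptor, FURIN, PCSK5 and PCSK6, proprotein convertases, and MMP14 and MMP26, metalloproteinases. The receptor GFRAL was not measured. Between 4 and 5 of the 6 were tested in each line and 0 were called in any comparison in limma, with at most 1 below an unadjusted p of 0.05 for irradiated minus untreated cells. Under the label HepG2, 3 of 5 were below that p for irradiated cells at 6 h against untreated 0 h. For untreated cells of that label, 2 of 5 were below it at 3 h and at 6 h against 0 h. With irradiation 0% to 6.23% of all genes passed, depending on line and time, so nothing is read from 0 calls among so few genes. In BJ at 3 h, for example, FURIN gave 0.029 and MMP14 gave 0.044 for irradiated minus untreated cells, where GDF15 gave 2.23.

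Among the other ligands of the TGF-beta superfamily, 31 of 36 listed genes were measured, and INHBE, an inhibin beta subunit that is also a known ATF4 target, was the only one called with irradiation. It rose in TK6 at 6 h by 1.85 (SE 0.18, limma adjusted p = 1.91e-06) and fell by 1.24 in untreated TK6 cells at 6 h against 0 h. Between 22 and 26 ligands were tested in each line. The rise in TK6 was 1 call of 22, where 6.23% of all genes passed, so nothing is read from it about the family. The untreated fall was also 1 call of 22, where 5.16% passed. Of 23 measured genes for other secreted stress factors, LIF, a cytokine in the p53 list too, rose in TK6 by 1.55 at 3 h and 1.14 at 6 h, and TNF fell there by 0.94 at 3 h. Of 15 tested in TK6, 1 rose and 1 fell at 3 h, where 3.99% of all genes passed. At 6 h 1 rose, where 6.23% passed. In U2OS at 6 h KITLG, the ligand of KIT, rose by 2.15, TGFA, a ligand of the EGF receptor, by 1.57 and FST, which encodes the activin antagonist follistatin, by 1.08. These were 3 of 18 tested genes, where 0.641% of all genes passed. FST rose in BJ by 0.67 at 3 h and 0.99 at 6 h. It was 1 of 19 tested genes at each time, where 0.18% and 0.235% of all genes passed. Of the 3 calls in U2OS at 6 h 1 was left without replicate 2 or replicate 3, and in BJ 0 genes of the list were called at either time without replicate 2 or replicate 3. At 3 h the BJ call was also lost without any single irradiated array, while the TK6 call of TNF was lost without replicate 3. In the arrays labelled HepG2 FST rose by 1.45 between 3 h and 6 h of irradiated arrays and by 1.40 between untreated 0 h and 6 h, a call lost without replicate 3. In these 2 comparisons 2 and 1 of 19 tested genes rose, where 0.821% and 0.64% of all genes passed.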

How the data were processed

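Total RNA from 75 samples of 5 human cell lines was hybridised to Affymetrix arrays. The labels do not say whether the 3 replicates of a group were separate cultures, so p-values measure the spread between these samples, which may be technical. The authors deposited log2 signals made with RMA, per the submitters' processing notes; its version and whether all arrays were normalised together are not given in the sources used here. The number of arrays limits precision.

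Of 54675 probe sets 41097 had 1 gene symbol, 1801 had several and 11777 had none. Each gene was read from its brightest such probe set. Per line, genes whose mean passed the 40th percentile of probe sets were fitted with limma 3.58.1 (R 4.3.3; lmFit, eBayes with trend, 5 groups, 10 residual degrees of freedom), with Benjamini-Hochberg adjustment over all genes tested and a threshold of 0.05. Differences between lines used 1 fit of 75 arrays. The fitting code was tested on simulated data.

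The genes named were GDF15, the 10 most like it over 75 arrays and the 5 most like it over 25 group means, all factors, receptor and processing genes, and up to 4 called members per other list, line and time, with further values that were not called. GDF15, the lists and the tests were chosen with earlier results of these data known.

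Replicate numbers come from the sample titles. Same-numbered samples were counted as paired where all 3 deviations correlated above 0.1. This held in 16 of 25 comparisons checked and in 8 of 10 of irradiated against untreated cells. The main fits and their p-values did not use this pairing, which entered only through the replicate block among the alternatives. Alternatives were no level filter, quantile normalisation, 1 fit of all arrays, a replicate block, eBayes without trend, each replicate or array left out, averaging a gene's probe sets, and values raised to the level limit; for likeness they were centring on 0 h, leaving out the labels G361 and HepG2, and Spearman's rho.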

Additional observations from a re-analysis of the deposited data

Results flagged for a closer look

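The change of GDF15 between 3 h and 6 h of irradiated arrays differed between lines by limma's test of the difference: the arrays labelled HepG2 exceeded TK6 by 1.88 and BJ by 2.32. For U2OS minus BJ it was 1.19, with every U2OS array higher and every BJ array lower at 6 h, but the difference missed the threshold in limma (adjusted p = 0.213). The irradiated arrays of TK6, U2OS and BJ had also entered the choice of the gene, which can bear on these tests.

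Other contrasts ran in opposite directions in every array of 2 lines, and these differences were not tested because the gene was chosen on them. For irradiated minus untreated cells at 3 h, the arrays labelled HepG2 lay below TK6 (-3.27), U2OS (-3.01) and BJ (-2.48), and at 6 h they lay below TK6 (-3.36), U2OS (-3.00) and BJ (-1.42). For untreated cells at 6 h against 0 h, the arrays labelled HepG2 exceeded TK6 by 2.98. The part that the identity of the arrays labelled HepG2 plays in these differences was not tested.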

How the results depend on the processing

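Of 800 alternative values for 50 GDF15 results, 748 were counted as unchanged, and among the 281 with a test none changed its call. For a tested result, unchanged meant the same sign and call, whatever the size. For the others it meant a move smaller than the SD within groups, so values near 0 could change sign. With the mean of all probe sets the rise between 3 h and 6 h of irradiated HepG2-labelled arrays was 0.83, still counted as unchanged. G361 minus U2OS at 0 h was 3.11 there, against 7.07, and was counted likewise. Every group held each replicate number once, so the replicate block could not change a GDF15 difference, only its adjusted p. No GDF15 call changed with it. The rise of 1.83 between 3 h and 6 h of irradiated arrays labelled HepG2 had a limma adjusted p of 2.75e-10 there. Over its alternatives the adjusted p of that rise ran from 1.56e-13 to 0.00249, and that of the smaller 6 h difference in BJ from 0.145 to 1.0.

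Quantile normalisation turned the 6 h minus 3 h irradiation effect to -0.022 in G361 and -0.10 in U2OS. The mean of all 3 GDF15 probe sets, of which the others are dim, made most values smaller. At 3 h and 6 h irradiated minus untreated was 1.23 and 1.36 for TK6, 1.03 and 1.15 for U2OS, 0.93 and 0.41 for BJ, and -0.055 in HepG2 at 3 h. Untreated minus 0 h was -0.24 and -0.41 in TK6 at 3 h and 6 h, -0.18 in U2OS at 3 h and 1.10 in HepG2 at 6 h. Irradiated minus 0 h was 0.99 and 0.94 for TK6, 0.84 and 1.05 for U2OS, 0.56 and 0.42 for BJ, then 0.16 and 0.99 for HepG2. At 0 h G361 minus HepG2 was 1.32, and HepG2 exceeded TK6 by 0.58, U2OS by 1.79 and BJ by 0.41.

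Leaving out replicates or arrays gave ranges for the irradiation effect at 6 h minus 3 h of -0.70 to 0.41 in G361, -0.089 to 0.30 in HepG2, -0.048 to 0.41 in TK6 and -0.23 to 0.23 in U2OS. Irradiated 6 h minus 3 h in TK6 ran from -0.24 to 0.080. Untreated minus 0 h ran from -0.25 to 0.36 in G361 at 3 h, lowest without untreated 3 h replicate 3, and from 1.79 to 2.11 in HepG2 at 6 h. Irradiated minus untreated in U2OS at 3 h ran from 2.55 to 3.04, irradiated 6 h minus 0 h in U2OS from 2.18 to 2.96 and HepG2 minus BJ at 0 h from 1.14 to 1.52. None of these ranges that spans 0 belongs to a called result.

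The counts of p53 targets that rose with irradiation were less steady. In U2OS at 3 h the count of 7 became 11 with the replicate block and 12 in the fit of 75 arrays, and 0 to 9 with arrays left out. In U2OS at 6 h it ran from 2 to 26 against 18, and the low values at both times came without replicate 3. In BJ it ran from 9 to 14 at 3 h, and at 6 h from 0, without replicate 3, to 8, with 17 under the block against 11. In HepG2 it ran from 0 to 2 at 3 h and from 0 to 15 at 6 h, highest without replicate 1, with 8 under the block, 1 after quantile normalisation and 1 in the fit of 75 arrays, against 0. In TK6 it stayed between 29 and 35 at 3 h and between 31 and 34 at 6 h.

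Counts over all genes varied more. With irradiation TK6 had 568 and 887 called genes at 3 h and 6 h, against 1203 and 1868 with the block and 211 to 558 and 246 to 823 with arrays left out. U2OS had 13 and 94, against 36 and 157 with the block and 2 to 37 and 12 to 256 with arrays left out, and 76 at 3 h in the fit of 75 arrays. BJ had 26 and 34, against 32 and 75 with the block and 12 to 22 and 0 to 20 with arrays left out, and 148 at 6 h in the fit of 75 arrays. HepG2 had 0 and 1, against 6 and 56 with the block and 0 to 939 and 0 to 372 with arrays left out. For irradiated 6 h minus 3 h the counts with arrays left out were 31 to 421 in HepG2 (118), 14 to 730 in TK6 (319), 0 to 140 in U2OS (9), 1 to 9 in BJ (17) and 0 to 1 in G361 (0), and with the block they were 195, 1167, 65, 57 and 11. Of the 10 genes most like GDF15, 9 were shared with centring on 0 h, 8 without G361 and HepG2 and 9 with Spearman's rho. Array signal limits GDF15 in untreated U2OS cells, where values lie near the level limit.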
